A study of Mus musculus with 4 samples.

Results

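Dbp, Tef and Hlf encode the proline and acidic amino acid-rich basic leucine zipper (PAR bZIP) factors, and Nfil3 encodes the related repressor also known as E4BP4. These genes were described in mouse liver as the 4 genes whose symbols carry 8 probe sets of the array, out of 12393 genes with a probe set of their own. Dbp had 2 probe sets, Tef 3, Hlf 2 and Nfil3 1. The PAR bZIP factors and Nfil3 bind the same DNA element, the D-box, where the PAR bZIP factors activate and Nfil3 represses. In liver they form an output arm of the circadian clock. CLOCK and BMAL1 (the product of Arntl) drive the Dbp gene through E-box elements, and REV-ERB proteins repress Nfil3, so that in normal mouse liver the activators and the repressor are abundant at opposite phases of the day. Genes of drug, heme, bile acid and fatty acid metabolism are among those that PAR bZIP factors are known to control in mouse liver.

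The 4 groups were PPARα-null mice (129S4/SvJae) fasted for 24 hours, wild-type mice (129S1/SvImJ) fasted for 24 hours, PPARα-null mice with food and wild-type mice with food. All were chow-fed males aged 12 to 20 weeks, and each group is 1 Affymetrix MOE430A array that measured pooled liver RNA, of 5 mice by the design text, although the study's methods allow for smaller pools. The genotypes came from different substrains, so genotype and substrain cannot be told apart. PPARα, a fatty acid-activated nuclear receptor, is absent from the null mice in every tissue, and the question of the study was which liver genes depend on it. By the study's methods food was withdrawn when the lights came on, and the fed mice were killed when the dark phase ended. All pools therefore stood near the change from dark to light. With 1 clock time per group, a shift in phase and a change in level cannot be told apart.

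Values are GCRMA intensities in array units, and a fold is the ratio of 2 pools after values below 16 units were raised to that floor. A difference was counted at 1.5-fold or more. No pool had a replicate, so these differences have no replicate check, and neither a test nor a standard deviation can be given. As a guide to error within an array, 1145 genes had at least 2 probe sets that reached 64 units. The log2 differences of their 2 brightest probe sets were a median of 0.25 apart in the comparison of the fasted genotypes and 0.17 apart in the fed one. For 18.0% and 4.10% of these genes the gap was itself 1.5-fold or more. The Ppara probe set read 16.3 units in fasted PPARα-null and 755 units in fasted wild-type liver, and 104 units in fed PPARα-null and 583 units in fed wild-type liver, although its position relative to the disruption of the gene is not known here. The 7 hepatocyte markers with a probe set summed to between 83770 and 104400 units, and 8 of the 9 lymphocyte and NK cell markers with a probe set stayed at the floor on all arrays. In such whole-tissue RNA, fewer cells of a type and less RNA per cell cannot be told apart.

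The promoters of these genes were read in the RefSeq windows of GRCm38.p6, which run from 250 bases before to 50 bases after each annotated start. All 4 genes matched, with 5 windows because Tef has 2 starts. The annotated Nfil3 gene reaches base 52982878, which lies outside its window, so the 5′ end of that gene was not searched. They are shown because some of them hold the letters of elements that clock and fasting factors are known to bind. Each line gives the 150 bases that end just before the start, 5′ to 3′ on the strand of the gene, with motif matches in capitals.
Tef, distal start, chr15:81802523-81802672, plus strand: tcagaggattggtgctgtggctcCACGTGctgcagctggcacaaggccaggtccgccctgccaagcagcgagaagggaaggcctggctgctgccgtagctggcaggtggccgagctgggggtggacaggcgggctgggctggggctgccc
Tef, proximal start, chr15:81811264-81811413, plus strand: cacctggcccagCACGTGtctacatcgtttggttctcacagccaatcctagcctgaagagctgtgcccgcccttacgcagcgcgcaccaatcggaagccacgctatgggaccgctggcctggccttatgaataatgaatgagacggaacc
Hlf, chr11:90390918-90391067, minus strand: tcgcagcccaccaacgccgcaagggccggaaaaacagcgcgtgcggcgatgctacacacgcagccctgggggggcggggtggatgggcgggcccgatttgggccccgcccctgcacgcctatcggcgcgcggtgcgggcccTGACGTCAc
Nfil3, chr13:52981040-52981189, minus strand: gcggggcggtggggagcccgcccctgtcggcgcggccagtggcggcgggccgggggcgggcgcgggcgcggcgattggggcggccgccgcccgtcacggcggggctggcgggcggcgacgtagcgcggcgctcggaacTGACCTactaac

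Both Tef windows held the E-box CACGTG, which begins 127 bases before the distal start and 138 bases before the proximal start. Of all 32851 promoter windows in the table, 7.15% held that hexamer. The Hlf window held the cAMP response element TGACGTCA, present in 1.79% of all windows. The Nfil3 window held the nuclear receptor hexamer AGGTCA on its opposite strand, read as TGACCT above, which is present in 16.3% of all windows. Both strands were searched, also for the D-box TTANGTAA (2.32% of windows) and for DR1, the direct repeat of AGGTCA with 1 base between the copies, to which PPARα binds as a partner of RXR (0.0396% of windows). DR1 contains the AGGTCA hexamer, so those searches overlap. None of the 5 windows held either of these, and the Dbp window held none of the letters searched. The cAMP response element was added to the search after the Hlf sequence had been seen.

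Dbp, a PAR bZIP gene with a wide daily swing in mouse liver, was low in PPARα-null liver in both feeding states. Its lead probe set, the one with the highest mean over the arrays, had 127.9 units in the fasted PPARα-null pool and 262 units in the fasted wild-type pool. In the fed state it had 56.0 units in PPARα-null and 208 units in wild-type liver. The wild-type pools were the 2 highest, and they lay 1.26-fold apart, under the threshold. Dbp was therefore 2.05-fold lower in PPARα-null than in wild-type liver after fasting and 3.71-fold lower with food.

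The other Dbp probe set gave the same order of the pools with wider gaps. It read 64.9 units in fasted PPARα-null and 195 units in fasted wild-type liver, and 25.1 units in fed PPARα-null and 104 units in fed wild-type liver. These are differences of 3.00-fold and 4.14-fold, lower in PPARα-null in each state. In the fed comparison only 9 of the 6947 measured genes had a more negative log2 difference than the -1.89 of the lead Dbp probe set, whereas in the fasted comparison 400 genes lay below its -1.03. A gene counted as measured when its lead probe set was above the floor on at least 1 array.

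**Figure D1:**
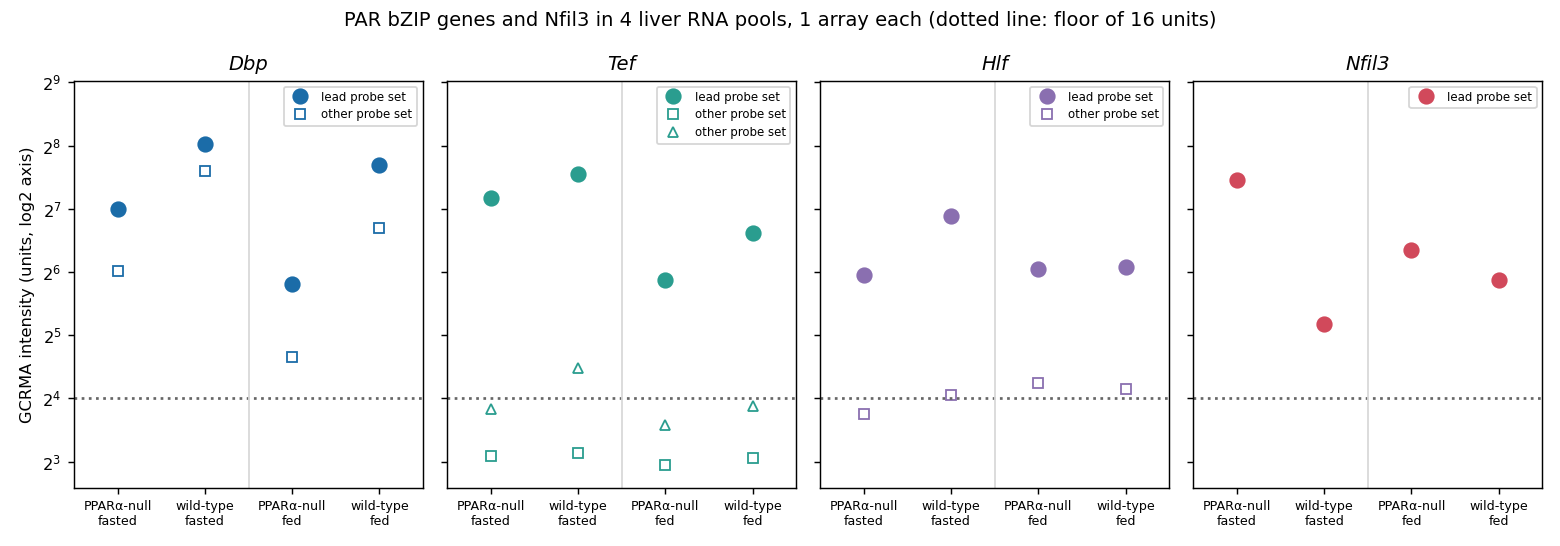
GCRMA intensity (log2 axis, array units) of every probe set of Dbp, Tef, Hlf and Nfil3 in the 4 pools, 1 array each. Filled circles are the lead probe sets, open symbols the other probe sets, and a dotted line marks 16 units, the floor. Dbp is lowest in the fed PPARα-null pool at 56.0 units, Hlf stands out in the fasted wild-type pool at 118 units, and Nfil3 is highest in the fasted PPARα-null pool at 176 units.

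Tef, which encodes thyrotroph embryonic factor, differed with both feeding state and genotype. Its lead probe set had 145 units in the fasted PPARα-null pool and 187 units in the fasted wild-type pool. With food the values were 58.3 units in PPARα-null and 98.5 units in wild-type liver. Both fasted pools lay above both fed pools, and within each feeding state the PPARα-null pool was the lower one. The genotype difference was 1.69-fold in the fed state, whereas the 1.29-fold difference in the fasted state was under the threshold. The remaining Tef probe sets carried little signal. One was between 7.69 and 8.75 units on all arrays, and the other was above the floor only in fasted wild-type liver, at 22.4 units.

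Hlf, which encodes hepatic leukemia factor, was high in 1 pool. It read 62.1 units in fasted PPARα-null and 118 units in fasted wild-type liver, and 66.2 units in fed PPARα-null and 67.5 units in fed wild-type liver. The fasted wild-type pool was 1.75-fold above the next highest, and the other 3 pools lay within 1.07-fold steps of each other. Hlf was thus 1.91-fold lower in PPARα-null than in wild-type liver after fasting, while the fed genotypes differed by 1.02-fold. The dimmer Hlf probe set read between 13.4 and 19.0 units, too close to the floor to compare the pools.

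Nfil3 ran the other way. Its probe set read 176 units in fasted PPARα-null and 36.2 units in fasted wild-type liver, and 81.4 units in fed PPARα-null and 58.5 units in fed wild-type liver. Both PPARα-null pools were above both wild-type pools. After fasting Nfil3 was 4.88-fold higher in PPARα-null than in wild-type liver, and 43 of the 6947 measured genes had a larger positive difference. In the fed state it was 1.39-fold higher in PPARα-null liver, under the threshold.

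Over the comparison of the fasted genotypes, 1 of the 4 genes was counted as higher and 2 as lower in PPARα-null liver, where 8.58% of all measured genes were higher and 13.6% lower. Over the fed genotypes 0 were counted as higher and 2 as lower, where 2.38% of measured genes were higher and 2.12% lower. The median log2 difference of the 4 genes was -0.65 in the fasted and -0.39 in the fed comparison, beside -0.012 and 0 over all measured genes. Between fasted PPARα-null and fasted wild-type liver the log2 difference minus that of Nfil3 was -3.32 for Dbp, -3.22 for Hlf and -2.65 for Tef, gaps of 9.98-fold, 9.29-fold and 6.29-fold. In the fed comparison the same gaps were -2.37 for Dbp, -1.23 for Tef and -0.51 for Hlf, and 5.16-fold, 2.35-fold and 1.42-fold.

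**Figure D2:**
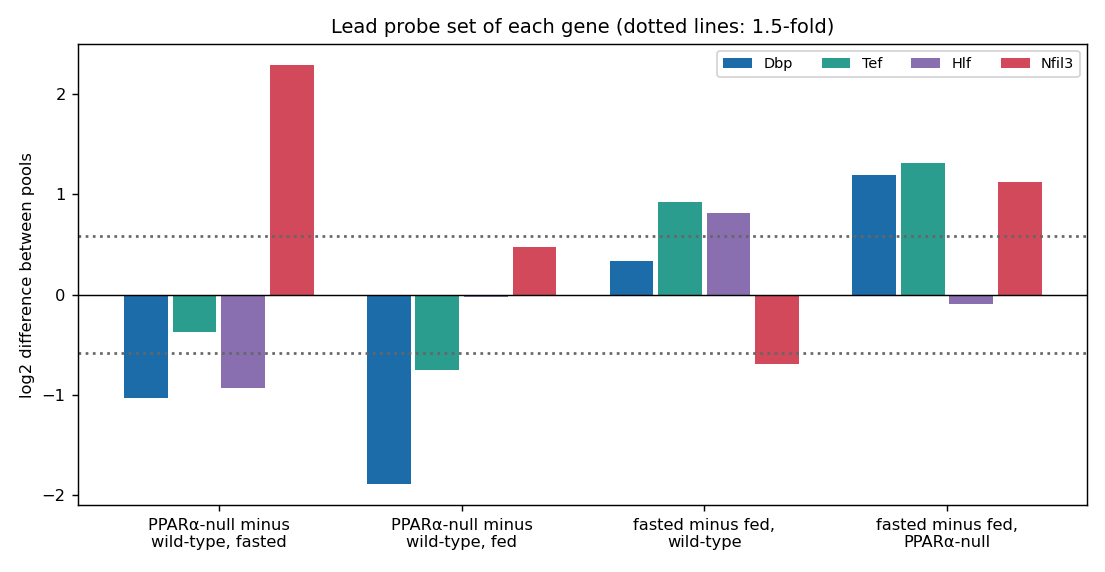
Log2 difference of the lead probe set of Dbp, Tef, Hlf and Nfil3 in the 4 comparisons between pools, with dotted lines at 1.5-fold. Nfil3 stands at 2.29 between the fasted genotypes and at -0.69 for fasting in wild-type liver, while Dbp stands at -1.03 and -1.89 between the genotypes in the fasted and the fed state.

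The fasting comparisons asked how each genotype responded to 24 hours without food. They share pools with the genotype comparisons above, so they regroup the same 4 values of each gene. In PPARα-null liver Tef was 2.48-fold, Dbp 2.28-fold and Nfil3 2.17-fold higher in the fasted than in the fed pool, and Hlf differed by 1.07-fold. There 3 of the 4 genes were counted as higher and 0 as lower, where 12.4% of measured genes were higher and 18.0% lower. In wild-type liver Tef was 1.89-fold and Hlf 1.75-fold higher in the fasted pool and Nfil3 was 1.62-fold lower. There 2 of the 4 genes were counted as higher and 1 as lower, where 8.2% of measured genes were higher and 8.29% lower. Dbp was 1.26-fold higher there in its lead probe set, under the threshold, and 1.87-fold higher in its other probe set.

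Tef was the 1 gene of the 4 that was counted in the same direction for fasting in both genotypes by lead probe sets, whereas Nfil3 was counted in opposite directions. Subtracting the wild-type from the PPARα-null fasting difference left 1.81 on the log2 scale for Nfil3, 0.86 for Dbp, 0.39 for Tef and -0.90 for Hlf. Of all measured genes 9.14% had such a value at or above the log2 of 1.5 and 14.9% at or below its negative. For Nfil3, 67 of 6947 measured genes had a larger value. The Dbp value depends on the probe set, since the other one gave 0.47, and no test of these differences was possible.

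**Figure D3:**
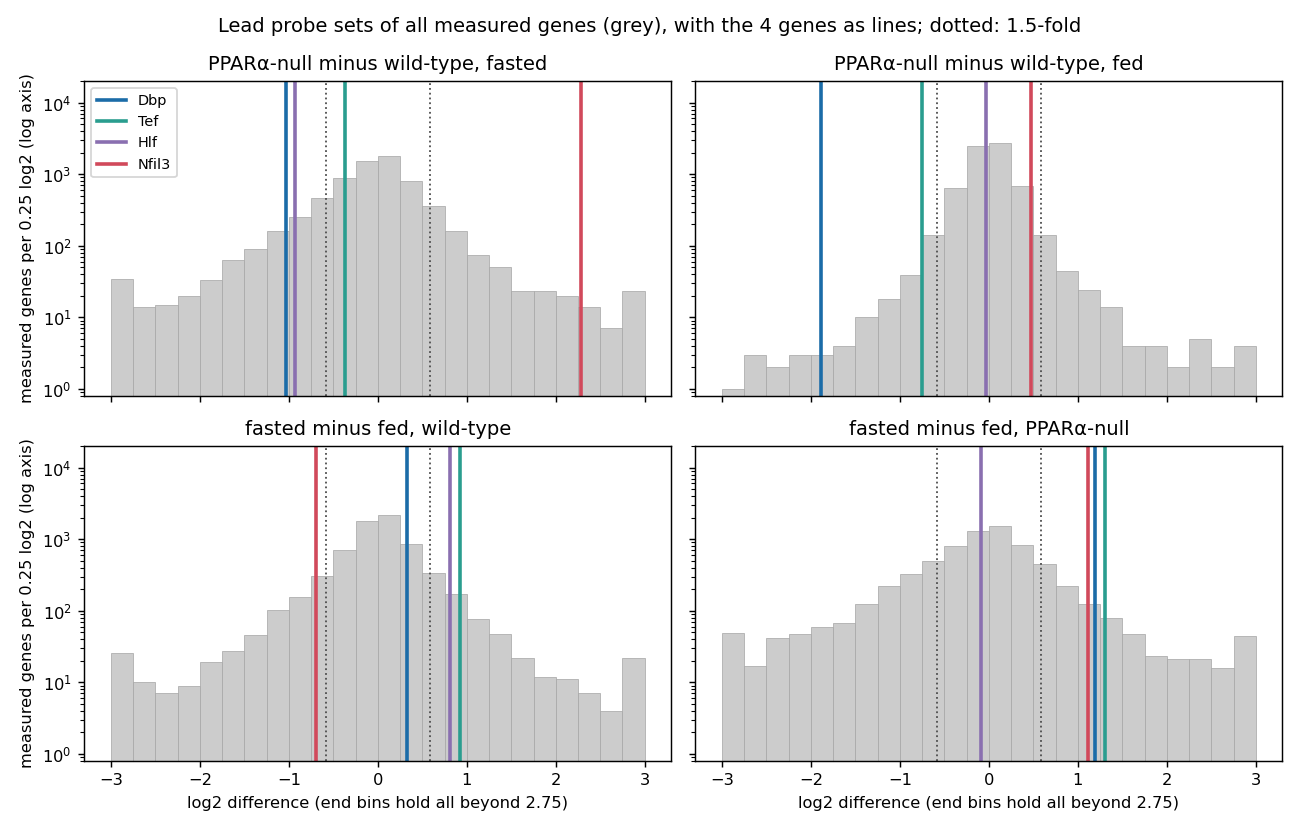
Distribution of the log2 differences of all 6947 measured genes (grey, log axis, bins of 0.25) in the 4 comparisons, with coloured lines at Dbp, Tef, Hlf and Nfil3 and dotted lines at 1.5-fold. Dbp lies in the lower tail between the fed genotypes, where 9 genes are below it, and Nfil3 in the upper tail between the fasted genotypes, where 43 genes are above it.

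Markers of other liver cells moved with some of these values. Macrophages and Kupffer cells can express Nfil3. Of 11 measured Kupffer cell and macrophage markers, 8 were counted as higher and 0 as lower in fasted PPARα-null than in fasted wild-type liver. All 12 listed markers, of which Cd68 stayed at the floor on every array, summed to 1212 units in fasted PPARα-null and 590 units in fasted wild-type liver, and to 1026 units in fed PPARα-null and 990.5 units in fed wild-type liver. This is the same order of the pools as for Nfil3. The order of the fed sums rested on C1qb, at 232 units in fed PPARα-null and 195 units in fed wild-type liver. Adgre1, Vsig4, Cd5l and Lyz2 did not have this order by themselves. The part of these cells in the Nfil3 difference was not tested. Of 5 measured endothelial markers 2 were higher and 1 was lower in fasted PPARα-null than in fasted wild-type liver. Of 5 measured stellate cell and fibroblast markers, 3 were higher in PPARα-null than in wild-type liver in each feeding state, while Des, Lrat and Col1a1 stayed at the floor. The 8 listed markers summed to 998 and 460 units in fasted PPARα-null and fasted wild-type liver, and to 917 and 591 units in fed PPARα-null and fed wild-type liver. Vim made up most of these sums, at 728, 253, 522 and 315 units in the same order. The stellate cell and fibroblast sums also ranked the pools as Nfil3 did, and the part of these cells was not tested. Of 6 measured markers of the exocrine pancreas, 4 were higher in fed PPARα-null than in fed wild-type liver, the comparison in which Dbp and Tef were lower. The 7 pancreatic markers with a probe set summed to 145 units in fasted PPARα-null, 140 units in fasted wild-type, 961 units in fed PPARα-null and 669 units in fed wild-type liver, with Cpa1 at the floor on every array. Cela1 made up most of the fed sums, at 745 units in PPARα-null and 552 units in wild-type liver, and was not counted between them. Of the 6 measured markers, 5 stayed under 64 units on all arrays. The part of the pancreatic markers in the Dbp and Tef values was not tested either.

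Core clock genes, whose products drive or repress Dbp and Nfil3, were set beside them in the same pools. Of 19 listed genes, 16 had a probe set of their own and 13 were measured. Between the fasted genotypes 6 were higher and 2 lower in PPARα-null liver, with a median log2 difference of 0.58 beside -0.012 over all measured genes. Bhlhe40, which encodes a repressor of CLOCK and BMAL1 activity, had the largest difference among them, with 1282 units in fasted PPARα-null and 45.5 units in fasted wild-type liver. Rora, whose product activates Arntl and Nfil3, was 2.29-fold higher in its lead probe set, but its other probe set, at a log2 difference of 0.55, was under the threshold. Arntl was 1.80-fold higher, with 33.8 units in fasted PPARα-null and 18.7 units in fasted wild-type liver. The cryptochrome gene Cry1 was 1.77-fold higher (57.2 and 32.3 units) and the period gene Per2 1.74-fold higher (34.1 and 19.6 units). Per1 was at least 1.70-fold higher. The values of Arntl, Cry1, Per2 and Per1 were all under 64 units. Clock was 1.56-fold lower in its lead probe set and at -0.30 on the log2 scale, under the threshold, in its other one. Csnk1d, a period protein kinase gene, was 1.75-fold lower in its lead probe set but had log2 differences of 1.75 and 1.88 in 2 others, so its direction depends on the probe set.

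Between the fed genotypes 1 of the 13 clock genes was higher and 1 lower, with a median of -0.063 beside 0. Cry1 was 1.59-fold higher in PPARα-null liver. Nr1d2, which encodes REV-ERBβ and is driven through E-boxes as Dbp is, read 885 units in fed PPARα-null and 1645 units in fed wild-type liver and was 1.86-fold lower. Its relative Nr1d1 read 21.1 units in fed PPARα-null and 24.3 units in fed wild-type liver. The loop activator gene Arntl read 31.6 units in fed PPARα-null and 24.5 units in fed wild-type liver. Of the 13 measured clock genes, 8 stayed under 64 units on all arrays.

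For fasting in PPARα-null liver 7 clock genes were higher and 2 were lower, and the median was 0.60 beside -0.0093. Bhlhe40 was 6.70-fold, Cry2 3.15-fold, Rora 2.74-fold (a log2 difference of 1.46, and 0.68 in its other probe set), Nr1d2 1.87-fold, Nr1d1 1.61-fold and Per2 1.51-fold higher in the fasted pool, and Per1 was at least 1.70-fold higher. Clock was 1.56-fold lower. Csnk1d was 1.92-fold lower in its lead probe set, but its other probe sets had log2 differences of 1.99, 2.64, -0.54 and -0.28. Its direction therefore depends on the probe set here too. For fasting in wild-type liver 1 was higher and 2 were lower, and the median was -0.045 beside 0. Cry2 was 1.87-fold higher, while Bhlhe40 was 5.14-fold and Per2 1.66-fold lower.

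**Figure D4:**
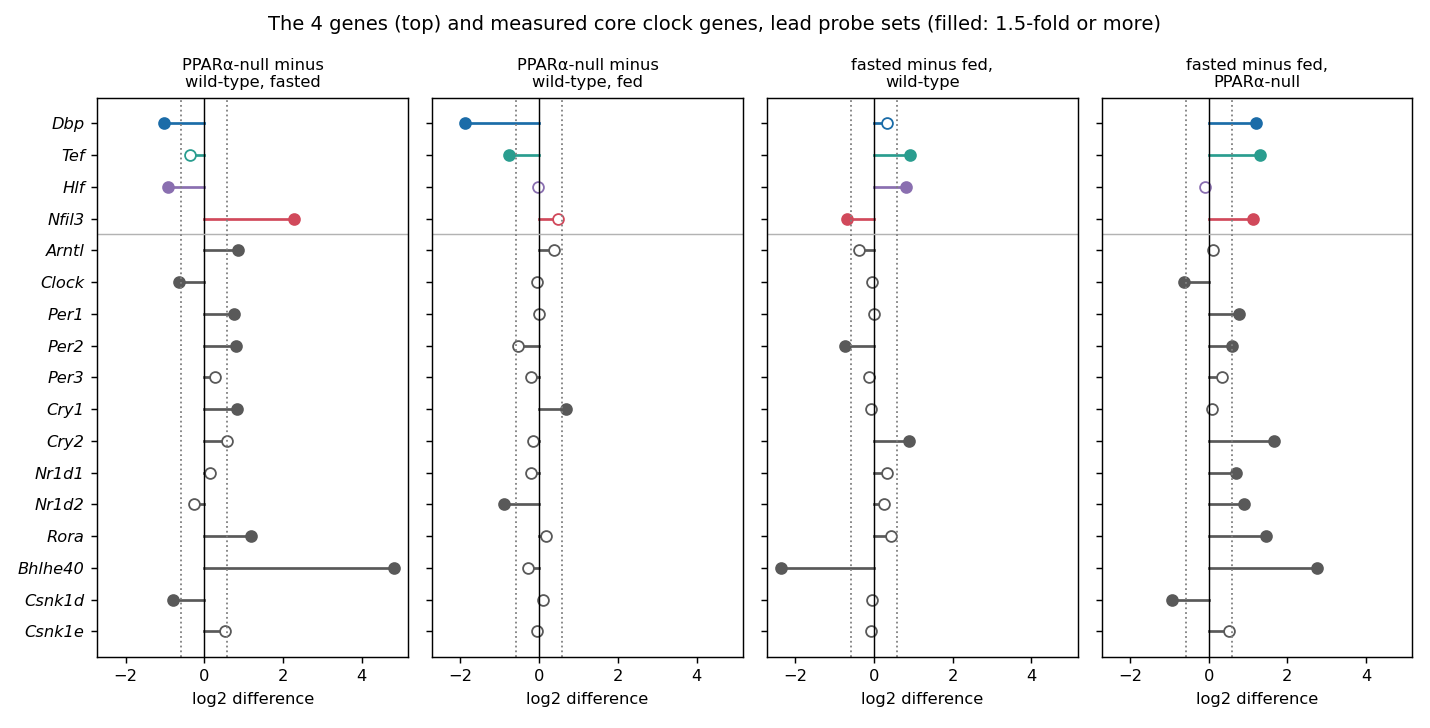
Log2 differences of Dbp, Tef, Hlf and Nfil3 (top) and of the 13 measured core clock genes in the 4 comparisons, lead probe sets, filled where 1.5-fold or more. Nfil3 and Bhlhe40 share their direction in 3 of the comparisons shown, and between the fed genotypes they stand at 0.48 and -0.29.

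Other bZIP factors of liver did not follow one pattern. Of 11 measured genes, 2 were higher and 1 lower between the fasted genotypes, where the median was 0.032. Between the fed genotypes 1 was higher and 2 were lower, where the median was 0.18. Cebpb, a C/EBP factor gene of the acute phase and of gluconeogenesis, was 1.61-fold higher and the lead probe set of Cebpg 2.55-fold lower in fasted PPARα-null than in fasted wild-type liver, while the other Cebpg probe sets lay near the floor and were not counted. Atf3 was at least 1.61-fold higher. Creb3l3, which encodes a fasting-responsive factor of the endoplasmic reticulum, read 381 units in fed PPARα-null and 775 units in fed wild-type liver and was 2.03-fold lower. Atf5 was 2.11-fold higher and Ddit3 1.69-fold lower in that comparison.

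Genes that PAR bZIP factors are known to control in liver were kept in separate lists of drug and heme metabolism and of fatty acid metabolism. In the list of drug and heme metabolism, 2 of 7 measured genes were higher and 1 was lower between the fasted genotypes, with a median of 0.22. Cyp2b10, a drug-metabolizing cytochrome P450 gene, was 44.6-fold higher in its lead probe set, a log2 difference of 5.48 beside 6.02 and 6.82 in its others. Alas1, the gene of the first enzyme of heme synthesis, was 2.47-fold higher in fasted PPARα-null liver. Cyp7a1, which encodes the enzyme that limits the rate of bile acid formation and is a DBP target in rat, was 14.8-fold lower, a log2 difference of -3.89 beside -5.31 in its other probe set. Between the fed genotypes 0 of the 7 were counted in either direction, and the median was -0.013. There 2.38% of all measured genes were higher and 2.12% lower, so a count of 0 among 7 genes is near those shares. In the list of fatty acid genes 5 of 7 were lower and 0 higher between the fasted genotypes, with a median of -0.88. These were Ppara, Cyp4a14, Acot1, Acot3 and Acot4. Ppara is the gene disrupted in the null mice, so its call goes with the genotype itself. Several of the others are known targets of PPARα. Acot genes are near-identical copies, and their separate values are uncertain. Between the fed genotypes 3 genes of this list were higher and 1 was lower, and the lower one was Ppara.

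Of 5 measured genes linked to Nfil3, 1 was higher and 2 were lower between the fasted genotypes, and 0 were counted between the fed ones. Per2 was the higher one, at 1.74-fold, and Cyp7a1, 14.8-fold lower, and Fgf21 were the lower ones. Per2 is also in the core clock list and Cyp7a1 in that of drug and heme metabolism, so their values repeat those given above. Fgf21, which Nfil3 represses in mouse hepatocytes, read 10.4 units in fasted PPARα-null and 32.2 units in fasted wild-type liver, at least 2.01-fold lower. It read 11.3 units in fed PPARα-null and 22.1 units in fed wild-type liver, and the PPARα-null values were below the floor. The null mice also lack PPARα, and the part of Nfil3 in these differences was not tested. Pck1 differed by 1.14-fold between the fasted genotypes. Srebf1 read 12.2 units in fasted PPARα-null, below the floor, and 16.9 units in fasted wild-type liver, too dim to compare. Over all lists together 41 genes were measured, each counted once, with Ppara among them. In PPARα-null against wild-type liver 10 were higher and 10 lower in the fasted state, and 5 were higher and 4 lower in the fed state. Of all measured genes 8.58% were higher and 13.6% lower in the fasted state, and 2.38% and 2.12% in the fed state. For fasting 16 were higher and 11 lower in PPARα-null and 13 were higher and 6 lower in wild-type liver. There the shares of all measured genes were 12.4% higher and 18.0% lower in PPARα-null, and 8.2% and 8.29% in wild-type liver. The same shares stand beside the counts of each list and of the markers above.

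The D-box TTANGTAA was found in 2 of the 21 promoter windows of core clock genes and in 0 windows of the other lists. Per3 carried it at 2 sites, which are shown because they are the D-boxes of a measured clock gene.
Per3, chr4:151044853-151044880, minus strand: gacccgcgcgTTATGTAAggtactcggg
Per3, chr4:151044806-151044833, minus strand: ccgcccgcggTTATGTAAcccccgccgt
The match is in capitals, and the sites begin 205 and 158 bases before the start. Per3 read 21.5 units in fasted PPARα-null and 18.0 units in fasted wild-type liver, and 17.0 units in fed PPARα-null and 19.7 units in fed wild-type liver. All were close to the floor, and Per3 was not counted in any comparison.

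The genes most like each member over the 4 arrays were found by the Euclidean distance between log2 values from which the mean over the arrays had been subtracted, among genes that reached a log2 value of 7 on at least 1 array. This is a description over 4 values only. Distances were not scaled by spread, and the highest pool over the lowest was 1.91-fold for Hlf, 3.20-fold for Tef, 4.67-fold for Dbp and 4.88-fold for Nfil3. Distances and counts of near genes therefore do not rank the members by how widely their pattern is shared. For Hlf the nearest genes were Acad11 at a distance of 0.10, Slc25a10 at 0.10, Ces1d at 0.13, Cipc at 0.14 and Cmbl at 0.16, and 183 of 2901 genes lay within 0.5. Acad11 read 2916 units in fasted PPARα-null, 5912 units in fasted wild-type, 3378 units in fed PPARα-null and 3454 units in fed wild-type liver. Cipc encodes a CLOCK-interacting protein. For Tef they were Zmym5 at 0.10, Pex16 at 0.19, Cpt1a at 0.22, Mafg at 0.25 and Erbb3 at 0.29, with 31 of 2900 genes within 0.5. Cpt1a, the gene of the carnitine palmitoyltransferase of liver mitochondria, read 1452 units in fasted PPARα-null, 1799 units in fasted wild-type, 477 units in fed PPARα-null and 904 units in fed wild-type liver. For Nfil3 the nearest were Rell1 at 0.26, Tgm2 at 0.31, Rela at 0.44, Hs6st1 at 0.45 and Srgn at 0.45, with 6 genes within 0.5. Dbp had 0 genes within 0.5, and its nearest were Acadl at 0.56, Abcg5 at 0.58, Adtrp at 0.60, Haus4 at 0.61 and Eci2 at 0.63. Acadl, the gene of the long-chain acyl-CoA dehydrogenase, read 1505 units in fasted PPARα-null, 2879 units in fasted wild-type, 450 units in fed PPARα-null and 1558 units in fed wild-type liver.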

How the data were processed

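The authors deposited linear probe set intensities from GCRMA, for which the submitters' processing notes give version 2.20. GCRMA corrects background by probe sequence, quantile normalizes and summarizes each probe set. The set of arrays normalized in 1 run is not stated in these sources. GCRMA can compress low values, and the scans were not used. Column medians were 14.4 to 14.6 units. Of 22690 probe sets, 64 controls were left out, 20393 named 1 gene, 691 named several and 1606 were unnamed in the annotation used. Probe sets with several symbols named no gene.

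Here values were converted to log2 and floored at 4 (16 units). The lead probe set of a gene is that with the highest mean, and a fold with the dimmer pool at the floor is written as at least. Each comparison is a difference of 2 arrays, with no test, and the threshold of 1.5-fold is that of the methods for pooled arrays. Their number limits the precision. The members and lists were chosen with earlier results of these data known. Named genes were the 4 members, core clock genes past 1.5-fold, up to 6 genes of each other list, 5 similar genes per member and Ppara. Where Nr1d1, Arntl, Fgf21, Srebf1, Pck1 and Per3 are named below the threshold, they were chosen after their values were seen.

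Alternatives were a floor at log2 of 6 (64 units), no floor, quantile normalization, median centring over probe sets at 64 units or more, lowess (fraction 0.3), the mean of a gene's probe sets, no suffixed probe sets, and a 2-fold threshold. The steps were tested on simulated data. The versions were numpy 2.4.6, pandas 2.3.3, statsmodels 0.14.6 and matplotlib 3.10.9 under Python 3.11.15. Promoter windows are from RefSeq on GRCm38.p6.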

Additional observations from a re-analysis of the deposited data

Results flagged for a closer look

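The fasting difference of Nfil3 had opposite directions in the genotypes, with a log2 difference of 1.12 in PPARα-null and -0.69 in wild-type liver. For Hlf it was -0.092 in PPARα-null and 0.81 in wild-type liver, and the PPARα-null value turned positive with quantile normalization (0.021) and median centring (0.038). Among the listed genes Bhlhe40 (2.74 in PPARα-null and -2.36 in wild-type liver) and Per2 (0.60 and -0.73) were opposite in the same direction as Nfil3, whereas Cyp7a1 (-1.82 and 1.73) and Cyp4a14 (-4.48, a bound, and 8.80) were opposite in the other direction.

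The genotype difference had opposite directions in the feeding states for Acot1 (-0.74 in the fasted and 2.61 in the fed state), Acot4 (-0.88 and 1.29) and Cyp4a14 (-8.83, a bound, and 4.45). The Cyp4a14 values marked as bounds are differences at least that far below 0, since its fasted PPARα-null value of 11.7 units lay below the floor. Its values of 4.45 and 8.80 rest on a fed wild-type value of 16.3 units, just above the floor, so their size is uncertain. The values of this section were picked out because the 2 differences of a gene point opposite ways. With 1 array per pool the difference between them was not tested.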

How the results depend on the processing

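Of 160 values of the 4 genes under 8 alternatives, 139 kept their direction and their side of the threshold, 15 were no longer past it and 2 came to be past it. The other 4 values stayed under the threshold with the sign turned. These were Hlf for fasting in PPARα-null liver, at -0.092 as reported, 0.021 with quantile normalization and 0.038 with median centring, Hlf between the fed genotypes, at -0.028 as reported and 0.039 with the mean of probe sets, and the difference of the fasting differences of Tef, at 0.39 as reported and -0.033 with the mean of probe sets. The mean over all probe sets brought in probe sets at or near the floor. With it Hlf was at -0.49 between the fasted genotypes, at 0.36 for fasting in wild-type liver and at -0.53 for the difference of the fasting differences. Tef with it was at -0.25 between the fed genotypes, at 0.44 for fasting in PPARα-null and at 0.47 in wild-type liver, and Dbp was at 0.62 for fasting in wild-type liver. Without suffixed probe sets Dbp was at 0.90 for fasting in wild-type liver and at 0.47 for the difference of the fasting differences. With a floor at 64 units Nfil3 was at 0 for fasting in wild-type liver. Not past a 2-fold threshold were Hlf at -0.93 between the fasted genotypes, at 0.81 for fasting in wild-type liver and at -0.90 for the difference of the fasting differences, Tef at -0.76 between the fed genotypes and at 0.92 for fasting in wild-type liver, Nfil3 at -0.69 for fasting in wild-type liver and Dbp at 0.86 for the difference of the fasting differences.

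Of the counts of listed genes, 11 of 64 moved by more than 1.5 times. In PPARα-null against wild-type liver, a floor at 64 units left 5 higher and 5 lower in the fasted and 3 higher in the fed state, the mean of probe sets 6 lower in the fasted state, no suffixed probe sets 3 higher in the fed state, and a 2-fold threshold 4 higher and 6 lower in the fasted and 2 lower in the fed state. For fasting, a floor at 64 units left 3 lower in wild-type liver, and a 2-fold threshold 10 higher and 7 lower in PPARα-null liver. Of all probe sets counted between the fasted genotypes 61.8% were lower in PPARα-null liver, 44.5% with median centring, which raised the fasted PPARα-null array by 0.10 on the log2 scale. For fasting in PPARα-null liver the share was 58.3%, and 46.2% with that centring. With median centring Dbp, Tef, Hlf and Nfil3 kept every call. No paired analysis was possible because each group is 1 pooled array without a replicate number. No pool could be left out, and signal limits the folds, since the lead probe set of each of the 4 genes was under 64 units on at least 1 array.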
